A study of Mus musculus with 6 samples.

Results

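The secreted products of goblet cells were followed as 10 genes, chosen by name from the deposited gene table: Muc2, Tff3, Clca1, Fcgbp, Zg16, Agr2, Retnlb, Ang4, Spink4 and Sycn. All 10 were found among the 34745 genes of the table, and all 10 passed the filter on low counts, as did 15819 genes in all. RNA sequencing had been done on colon tissue of age-matched male mice, with 3 libraries labelled TRPC-hepta knockout and 3 labelled TRPC-hepta control. By the series title the knockout lacks all 7 TRPC proteins, cation channels that let calcium into cells. Every mouse of both groups had taken dextran sulfate sodium (DSS), which injures the colonic epithelium, for 6 days before it was killed, and untreated mice were not analysed here. The sources used here give no age, strain, deleted exons or exact genotype of the controls. Whether the replicates are separate animals is not stated in the labels, and p-values cover only the spread among these 6 samples, which may be technical. In whole tissue, fewer goblet cells and less RNA per goblet cell cannot be told apart.

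Goblet cells line the colonic crypts and release mucus that keeps bacteria off the epithelium. Muc2 is the gel-forming mucin of that layer, and Fcgbp, Clca1 and Zg16 are proteins packed and secreted with it. Agr2 is a disulfide isomerase of the endoplasmic reticulum that mouse goblet cells need to make Muc2, Tff3 is a trefoil peptide of epithelial repair, and Retnlb and Ang4 are secreted proteins that act on bacteria. In colitis this mucus layer is often thinned.

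The libraries held 13816295 to 15505327 counted reads in the knockout and 16819662 to 17584992 in the control. Below, CPM is the read count scaled by TMM-adjusted library totals, and FPKM is the deposited value per kilobase of transcript, used wherever genes are compared with each other. The knockout libraries were far apart, and replicate 3 lay near a sum of the others. Its counts were fitted by a sum with a weight of 0.498 on replicate 1 and 0.593 on replicate 2. The squared deviation divided by the counting variance had a median of 1.20 over 15504 genes. Control libraries fitted in the same way from each other gave medians of 3.11 to 4.27. Counting noise alone would give a lower median than any of these, that of knockout replicate 3 included. With the 10 genes kept out of that fit, their counts in knockout replicate 3 were 0.947 to 1.05 times the fitted ones, against 0.139 to 2.33 times over the 3 control libraries. Counts of calls are for that reason also given without knockout replicate 3. The series' design text speaks of duplicates although each group holds 3 libraries, and no label says whether knockout replicate 3 came from material of its own. Means, SDs and tests with n = 3 treat it as an independent sample, which could not be checked.

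As a sum, the 10 genes varied widely among the knockout libraries. Together they had 3793, 15860.0 and 10129 CPM in knockout replicates 1, 2 and 3, against 9967, 5686 and 7195 CPM in control replicates 1, 2 and 3. The lowest and the highest sum were thus both knockout libraries, but the highest rested on Muc2. Without Muc2 the sums were 2732, 6545 and 4653 CPM in knockout replicates 1, 2 and 3. Control replicates 1, 2 and 3 then had 6950, 3319 and 4024 CPM, so that the highest sum was a control library. Knockout replicate 1 was below every control library in 6 of the 10 genes, and so were 37.3% of all genes tested. Knockout replicate 2 was above every control library in 6 of the 10, and so were 32.8% of all genes tested. Both held at once for Muc2, Agr2 and Retnlb, and for 13.0% of all genes tested. Replicate 3 lay between replicates 1 and 2 in 10 of 10 genes, as did 72.1% of all genes tested.

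By edgeR's quasi-likelihood test, 0 of the 10 genes passed the threshold of a Benjamini-Hochberg adjusted p under 0.05, where 1.76% of all genes tested did (1.09% upward and 0.670% downward). An unadjusted p under 0.05 was reached by 1 gene, Sycn, beside 16.0% of all genes tested, and DESeq2 called that gene alone among the 10, beside 9.19% of all genes tested. Fold changes were positive for 8 genes and negative for Clca1 and Ang4, where 51.6% of all genes tested were positive, with a median log2 fold change of 0.34 beside 0.01 over all genes tested. The groups did not overlap in 2 of the 10 genes, Sycn (higher) and Ang4 (lower), while 21.6% of all genes tested had groups that did not overlap and 11.2% were higher in every knockout library. Without knockout replicate 3 the groups did not overlap in the same 2 genes, beside 24.4% of all genes tested. The count of calls was again 0 without knockout replicate 3, where 0.0930% of all genes tested were called, and 0 without knockout replicate 1 (1.99%). It was 1 (Sycn) without knockout replicate 2, where 11.2% of all genes tested were called.

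**Figure D1:**
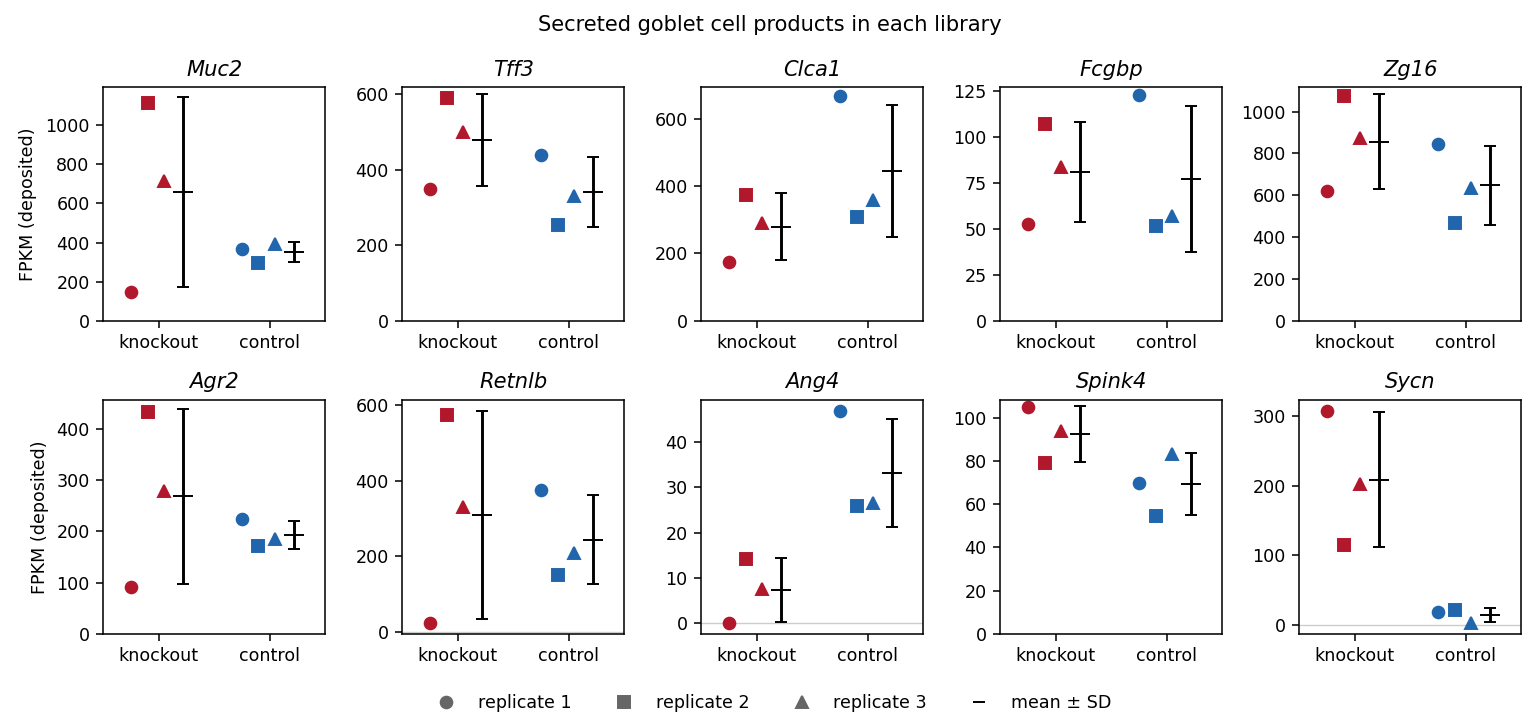
FPKM of each of the 10 genes (vertical axes, linear, scaled per gene) in the knockout and control libraries, with the replicate number as marker shape and the mean ± SD as a black bar (n = 3 each). Muc2 reached 148 to 1113 FPKM across the knockout libraries and 295 to 392 FPKM across the controls, and Sycn 114 to 308 FPKM in the knockout against 2.77 to 21.3 FPKM in the controls.

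Per length of transcript, Zg16 had the highest mean level in either group, at 857 ± 228 FPKM in the knockout and 648 ± 190 FPKM in the control (SD, n = 3 each). In the knockout, Muc2 (659.5 FPKM), Tff3 (479 FPKM), Retnlb (309 FPKM), Clca1 (279 FPKM), Agr2 (268 FPKM) and Sycn (208 FPKM) followed by mean. Spink4 (92.8 FPKM), Fcgbp (81.1 FPKM) and Ang4 (7.21 FPKM) closed that order. In the control, the order after Zg16 was Clca1 (445 FPKM), Muc2 (351 FPKM), Tff3 (341 FPKM), Retnlb (244 FPKM), Agr2 (193 FPKM), Fcgbp (76.9 FPKM), Spink4 (69.3 FPKM), Ang4 (33.1 FPKM) and Sycn (14.01 FPKM). Most neighbours in these orders overlapped across libraries. Ranges were separate between Sycn and Spink4 and between Fcgbp and Ang4 in the knockout, and between Agr2 and Fcgbp, Spink4 and Ang4, and Ang4 and Sycn in the control. Sycn was seventh of the 10 in the knockout and last in the control. By FPKM among all genes of the table it ranked 78, 315 and 148 in knockout replicates 1, 2 and 3 against 2292, 1969 and 8656 in control replicates 1, 2 and 3. Retnlb ranked 1860, 53 and 78 in the knockout libraries against 75, 209 and 143 in the controls.

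Muc2 (ENSMUSG00000025515; GRCm38 chromosome 7, 141690340 to 141754693, plus strand) carried the widest absolute swing. It had 1061, 9315 and 5477 CPM in knockout replicates 1, 2 and 3, against 3017, 2367 and 3171 CPM in control replicates 1, 2 and 3. The controls sat close together, while 1 knockout library was below and 2 were above all of them. Means were 5284 ± 4130.5 CPM in the knockout and 2852 ± 427 CPM in the control (SD, n = 3 each), a log2 fold change of 0.89 ± 0.69 (SE), with edgeR's quasi-likelihood test giving a Benjamini-Hochberg adjusted p of 0.596. It was 0.19 without knockout replicate 2 (edgeR adjusted p = 0.864) and 1.37 without knockout replicate 1 (0.0784). Between knockout replicates 2 and 1 the level differed 8.78-fold. Of 10217 genes with a mean of at least 10 CPM, 1.25% differed as much between these libraries in either direction, and the median gene differed by 0.48 on the log2 scale.

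Agr2 (ENSMUSG00000020581; chromosome 12, 35992907 to 36004087, plus strand), the isomerase that helps to fold Muc2, varied much as Muc2 did. Its levels were 114, 628 and 368 CPM in knockout replicates 1, 2 and 3, against 317, 237 and 259.7 CPM in control replicates 1, 2 and 3. Again knockout replicate 1 was below all controls and replicates 2 and 3 were above them. The log2 fold change was 0.45 ± 0.54 (SE; edgeR adjusted p = 0.750), and it was -0.18 without knockout replicate 2. Centred on each gene's control mean, Agr2 and Muc2 profiles over the 6 libraries differed by a root mean square of 0.32 on the log2 scale, the smallest such difference between Muc2 and another of the 10.

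Promoter windows are shown for the pair with like profiles, Muc2 and Agr2, and for Ang4 and Sycn, the genes whose groups did not overlap. Each runs from 250 bases before to 50 bases after the gene's start in RefSeq (GRCm38.p6), read along the gene. The windows are chr7:141690090-141690389 (plus strand) for Muc2, chr12:35992675-35992974 (plus strand) for Agr2, chr14:51773541-51773840 (minus strand) for Ang4 and chr7:28540635-28540934 (plus strand) for Sycn. Capitals mark matches on either strand to any of 5 short motifs. The TATA box, a short motif of some promoters, was searched as TATAAA. The motif of forkhead factors, which act across the gut epithelium, was searched as TGTTTNC. The E-box of the kind that ATOH1 binds was searched as CAGNTG. The motif of CDX homeobox factors of the intestine was searched as TTTATNG, and the STAT6 motif by its palindrome with a spacer of 4 bases.
Muc2: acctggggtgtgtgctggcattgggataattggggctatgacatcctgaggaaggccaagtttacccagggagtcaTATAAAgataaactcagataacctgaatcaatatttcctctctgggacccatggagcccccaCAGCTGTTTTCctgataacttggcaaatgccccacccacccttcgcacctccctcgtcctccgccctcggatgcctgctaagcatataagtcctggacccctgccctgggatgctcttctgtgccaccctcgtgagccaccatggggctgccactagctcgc
Agr2: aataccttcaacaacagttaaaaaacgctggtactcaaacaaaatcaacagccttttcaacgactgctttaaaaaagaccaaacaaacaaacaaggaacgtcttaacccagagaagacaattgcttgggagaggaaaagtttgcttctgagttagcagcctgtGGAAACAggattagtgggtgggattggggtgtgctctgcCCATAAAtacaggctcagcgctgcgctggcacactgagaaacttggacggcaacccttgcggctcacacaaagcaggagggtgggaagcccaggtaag
Ang4: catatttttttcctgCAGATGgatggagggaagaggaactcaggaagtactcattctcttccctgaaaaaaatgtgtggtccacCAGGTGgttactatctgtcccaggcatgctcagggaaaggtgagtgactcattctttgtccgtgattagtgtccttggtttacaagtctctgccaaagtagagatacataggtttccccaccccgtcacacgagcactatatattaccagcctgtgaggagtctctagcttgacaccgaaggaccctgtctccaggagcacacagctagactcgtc
Sycn: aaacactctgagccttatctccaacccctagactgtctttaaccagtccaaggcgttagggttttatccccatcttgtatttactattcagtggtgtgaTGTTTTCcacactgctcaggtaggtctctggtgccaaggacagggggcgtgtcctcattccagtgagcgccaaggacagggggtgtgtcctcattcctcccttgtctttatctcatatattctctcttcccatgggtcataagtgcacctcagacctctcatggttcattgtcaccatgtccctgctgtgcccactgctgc

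The Muc2 window held the TATA box motif at bases 77 to 82, which begins at offset -174 from the gene's start. It also held an E-box at bases 139 to 144 and a forkhead match at bases 143 to 149 that overlaps the E-box. The Agr2 window held a forkhead match at bases 164 to 170 and a CDX match at bases 203 to 209, both on the opposite strand. In the Ang4 window there were E-boxes at bases 16 to 21 and 85 to 90, and in that of Sycn a forkhead match at bases 100 to 106. None of these windows held the STAT6 motif. Of 32851 promoter windows of this length, 13.6% held the TATA box motif, 20.5% the forkhead match, 51.4% the E-box, 6.95% the STAT6 motif and 10.9% the CDX match, so each match is a description of letters and not of a bound site. Of the 10 genes, 5 were matched in the RefSeq promoter table, and Tff3, Clca1, Zg16, Retnlb and Spink4 have no window here.

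Clca1, Fcgbp and Zg16, which are stored and released with Muc2, were more level across the knockout than Muc2. Clca1 (ENSMUSG00000028255; chromosome 3, 145003817 to 145032776, minus strand), a secreted metalloprotease of mucus, had 649, 1616 and 1150.0 CPM in knockout replicates 1, 2 and 3. In control replicates 1, 2 and 3 it had 2846, 1281 and 1505 CPM. Knockout replicates 1 and 3 were below every control, replicate 2 lay among them, and control replicate 1 was far above the other libraries. Its log2 fold change was -0.72 ± 0.43 (SE; edgeR adjusted p = 0.485).

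Fcgbp (ENSMUSG00000047730; chromosome 7, 28071236 to 28120862, plus strand), a large protein that binds to Muc2, had 658, 1559 and 1113 CPM in knockout replicates 1, 2 and 3, against 1756, 721 and 801 CPM in control replicates 1, 2 and 3. The groups overlapped almost wholly. Means were 1110.3 ± 451 CPM in the knockout and 1092 ± 576 CPM in the control (SD, n = 3 each), with a log2 fold change of 0.02 ± 0.45 (SE; edgeR adjusted p = 0.988). Its sign changed when knockout replicate 2 (-0.31) or control replicate 2 (-0.21) or 3 (-0.16) was left out.

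Zg16 (ENSMUSG00000049350; chromosome 7, 127050156 to 127087328, minus strand), a lectin-like protein that binds Gram-positive bacteria, had 926, 1879 and 1391 CPM in knockout replicates 1, 2 and 3. Control replicates 1, 2 and 3 had 1445, 780.4 and 1069.7 CPM. Only knockout replicate 2 was outside the range of the controls, above it. The log2 fold change was 0.35 ± 0.34 (SE; edgeR adjusted p = 0.683). Tff3 (ENSMUSG00000024029; chromosome 17, 31125306 to 31129646, minus strand) had 156, 308 and 238 CPM in knockout replicates 1, 2 and 3, against 225, 128 and 166 CPM in control replicates 1, 2 and 3, so that knockout replicates 2 and 3 were above the controls and replicate 1 among them. Its log2 fold change was 0.43 ± 0.31 (SE; edgeR adjusted p = 0.553).

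Of the 10 genes, Retnlb and Ang4 had the widest relative gaps between knockout replicates 2 and 1. Zg16, whose protein also binds bacteria, differed 2.03-fold. Retnlb (ENSMUSG00000022650; chromosome 16, 48816856 to 48818891, plus strand), a resistin-like protein that kills Gram-negative bacteria, had 220, 5806 and 3559 reads in knockout replicates 1, 2 and 3. These are 14.4, 424 and 222 CPM, against 271, 106 and 148 CPM in control replicates 1, 2 and 3. Knockout replicate 1 stood far below every other library and replicate 2 above all of them. The 29.4-fold gap between knockout replicates 2 and 1 was matched or exceeded, in either direction, by 0.206% of the 10217 genes with a mean of at least 10 CPM, after 0.5 CPM was added to each value. The log2 fold change of 0.33 ± 0.98 (SE; edgeR adjusted p = 0.907) had no stable sign, being -0.57 without knockout replicate 2 and 0.88 without knockout replicate 1.

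Ang4 (ENSMUSG00000060615; chromosome 14, 51763878 to 51773590, minus strand), a secreted ribonuclease known in mouse intestine for killing bacteria, was lower in every knockout library than in any control. It had 0, 146 and 82 reads in knockout replicates 1, 2 and 3, against 560, 323 and 317 reads in control replicates 1, 2 and 3. In CPM these are 0, 10.7 and 5.11 in the knockout and 34.6, 18.7 and 19.3 in the control, and the 0 in knockout replicate 1 allows up to 0.197 CPM (3 counts, counting error only). The log2 fold change was -2.21 ± 1.12 (SE) and was not past the threshold (edgeR adjusted p = 0.3995). Over all other settings it ran between -3.85 and -1.63, with adjusted p from 0.0514 to 0.718. The angiogenin family has close relatives, and no source used here says how shared reads were counted, so the value is uncertain.

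**Figure D2:**
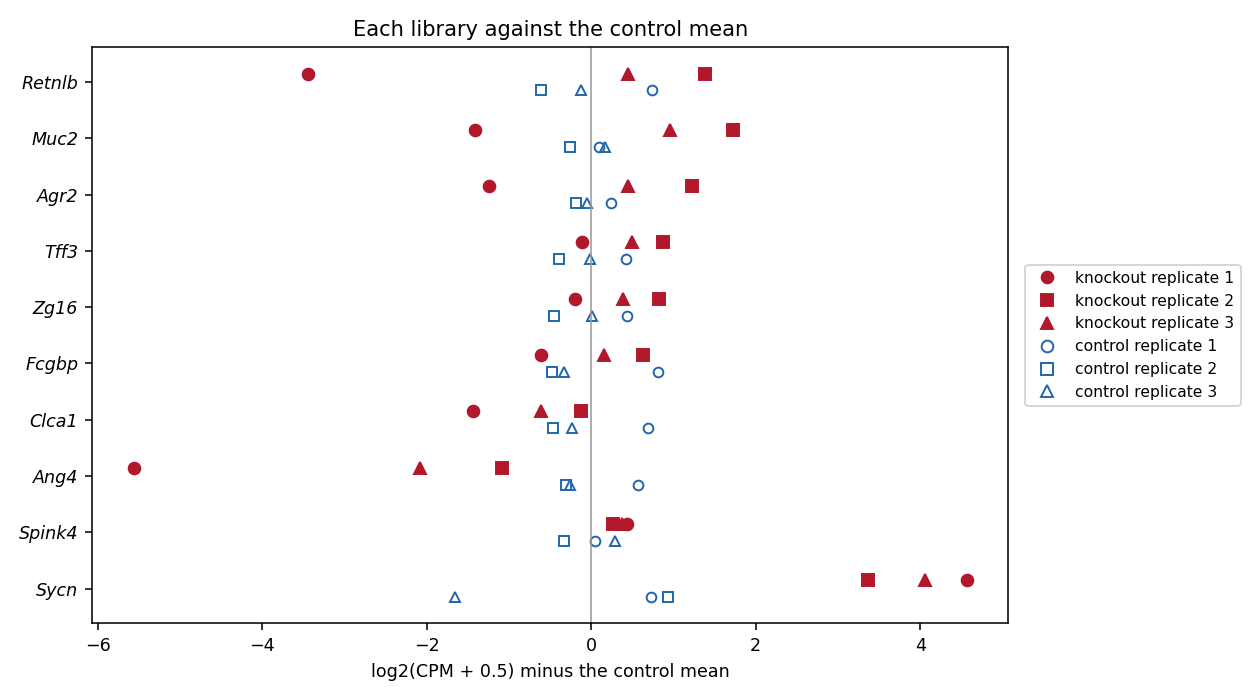
Log2(CPM + 0.5) of each library minus the mean of the control libraries (horizontal axis), for the 10 genes, with knockout libraries as filled and control libraries as open markers. Knockout replicate 1 lies at -5.57 for Ang4, -3.44 for Retnlb, -1.42 for Muc2 and -1.24 for Agr2, while all 3 knockout libraries lie at 3.37 to 4.57 for Sycn.

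Spink4 and Sycn did not share the order of the knockout libraries that the mucus genes had. Spink4 (ENSMUSG00000028415; chromosome 4, 40920052 to 40931395, plus strand), a Kazal-type inhibitor of serine proteases, had 59.2, 52.1 and 56.3 CPM in knockout replicates 1, 2 and 3, against 44.9, 34.5 and 53.1 CPM in control replicates 1, 2 and 3. Knockout replicates 1 and 3 were just above the controls and replicate 2 among them. It was the most even of the 10 genes across the knockout, with an SD of 0.09 on the log2(CPM + 0.5) scale against 0.31 in the control. Its log2 fold change was 0.34 ± 0.18 (SE; edgeR adjusted p = 0.434).

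Sycn (ENSMUSG00000084174; chromosome 7, 28540885 to 28542210, plus strand) encodes syncollin, known as a zymogen granule protein of the exocrine pancreas. It had 2370, 924 and 1754 reads in knockout replicates 1, 2 and 3, against 168, 209 and 26 reads in control replicates 1, 2 and 3. These are 155, 67.4 and 109 CPM in the knockout and 10.4, 12.1 and 1.58 CPM in the control, so that every knockout library was above every control. Means were 111 ± 44.0 CPM in the knockout and 8.02 ± 5.64 CPM in the control (SD, n = 3 each). The log2 fold change was 3.79 ± 0.73 (SE), with an unadjusted p of 0.00143 and a Benjamini-Hochberg adjusted p of 0.0623 by edgeR's quasi-likelihood test, which missed the threshold.

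Sycn passed the threshold under 4 of 15 other settings. These were DESeq2 (adjusted p = 1.7e-06), edgeR with no filter on low counts (0.0457), limma voom with quality weights (0.00366) and edgeR without knockout replicate 2 (0.0177). Its log2 fold change was between 3.29 and 4.43 in all 15, and adjusted p reached 0.233 without control replicate 1. Acinar genes of the pancreas were read beside it. Of 14 acinar markers, 7 had 0 reads in all 6 libraries, including those of carboxypeptidase Cpa1 and pancreatic lipase Pnlip. The summed level of the list was 38.3 to 60.5 CPM in the knockout and 41 to 56.5 CPM in the control. Most of it was Cela1, an elastase gene, at 38.6 ± 11.95 CPM in the knockout and 42.7 ± 9.15 CPM in the control (SD, n = 3 each). Pnliprp2, a lipase gene of the list, had 7.38 ± 0.91 CPM in the knockout and 3.93 ± 2.09 CPM in the control (SD, n = 3 each), and 0 of the 4 acinar markers tested were called by edgeR (DESeq2 called 0, and the unadjusted p was under 0.05 for 0). Sycn lies within the GENCODE locus of Samd4b, which runs on the opposite strand and was not found by its identifier in the deposited gene table. No source used here says whether reads were counted by strand, and overlap of their exons was not checked. Whether reads of these genes were kept apart is therefore not known.

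**Figure D3:**
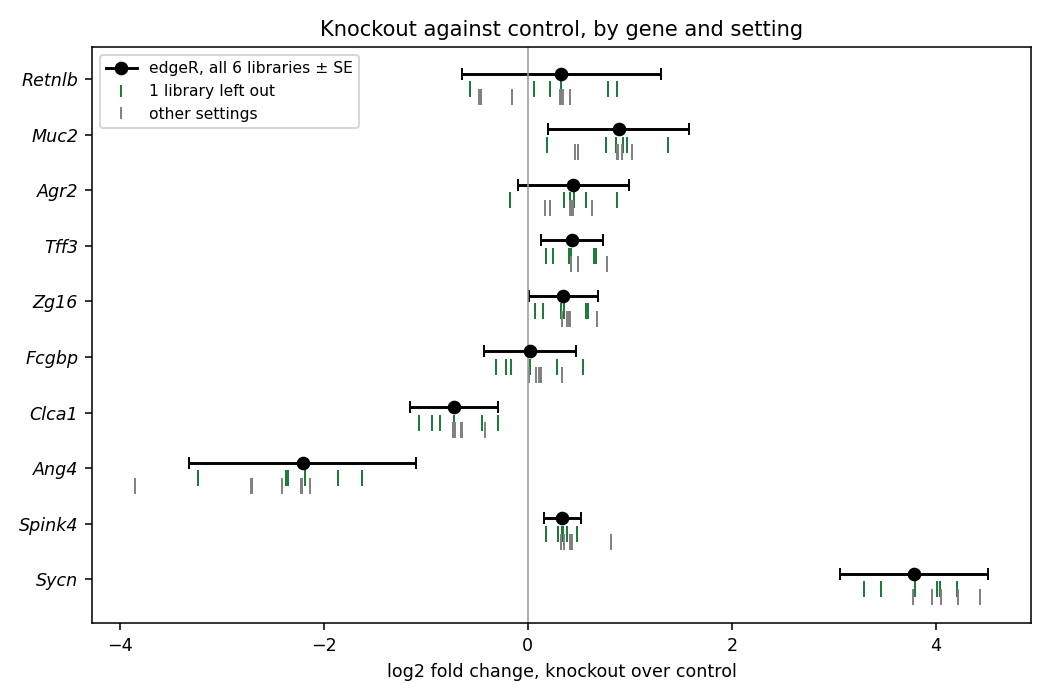
Log2 fold change of knockout over control for the 10 genes (horizontal axis). Black points with bars are edgeR's estimates on all 6 libraries ± SE, green ticks are fits that leave out 1 library and grey ticks the other settings. Sycn stays between 3.29 and 4.43 and Ang4 between -3.85 and -1.63, whereas Agr2, Fcgbp and Retnlb fall on both sides of 0.

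The colonic epithelium itself was read at different levels in the knockout libraries. The 15 pan-epithelial markers, among them Epcam and the keratin Krt8, summed to 9709, 20832 and 15138 CPM in knockout replicates 1, 2 and 3, against 19589.7, 20120.0 and 17650.2 CPM in control replicates 1, 2 and 3. Knockout replicate 1 was below every control library for 14 of the 15, beside 37.3% of all genes tested. Of 14 tested, 1 fell, beside 0.670% of all genes tested. This was the tight junction gene Cldn4, at 33.3 ± 4.09 CPM in the knockout and 66.8 ± 6.16 CPM in the control (SD, n = 3 each). Its log2 fold change was -1.002 ± 0.15 (SE; edgeR adjusted p = 0.0335). That call was lost without knockout replicate 3 and without each control replicate (adjusted p = 0.133 to 0.199). Cdhr5, a brush border cadherin, had a log2 fold change of -0.86 (edgeR adjusted p = 0.205). It was called lower by DESeq2 (adjusted p = 0.0474) and by edgeR without knockout replicate 2 (0.0328). In all, DESeq2 called 2 of the 14 lower and 0 higher, beside 9.19% of all genes tested. An unadjusted p under 0.05 was reached by 3 in edgeR, beside 16.0% of all genes tested. The median of the list was -0.40, beside 0.01 over all genes tested.

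Set against these markers, the goblet cell genes showed separate patterns. Zg16 had 95.4, 90.2 and 91.9 reads per 1000 pan-epithelial reads in knockout replicates 1, 2 and 3, against 73.7, 38.8 and 60.6 in control replicates 1, 2 and 3. Tff3 had 16.1, 14.8 and 15.7 in the knockout and 11.5, 6.35 and 9.43 in the control on the same scale. Both were even across the knockout and higher there than in any control library. The summed markers were themselves below every control in knockout replicates 1 and 3, and in CPM both genes overlapped the controls. How many of all genes are separate on this scale was not counted. Fcgbp, with 67.8, 74.8 and 73.6 against 89.6, 35.8 and 45.4, and Clca1, with 66.8, 77.6 and 76.0 against 145, 63.7 and 85.3, were also even across the knockout, with both groups overlapping.

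Muc2, Agr2 and Retnlb were uneven on that scale too. Muc2 had 109, 447 and 362 reads per 1000 pan-epithelial reads in knockout replicates 1, 2 and 3, against 154, 118 and 179.7 in control replicates 1, 2 and 3. Agr2 had 11.7, 30.2 and 24.3 against 16.2, 11.8 and 14.7, and Retnlb 1.49, 20.3 and 14.7 against 13.8, 5.26 and 8.40. Knockout replicate 1 remained below the controls for these 3 genes, and replicates 2 and 3 were above them. Spink4 ran the other way, with 6.09, 2.501 and 3.72 in the knockout against 2.29, 1.71 and 3.01 in the control. In edgeR with libraries scaled to these markers, the median log2 fold change of all genes moved to 0.47. Relative to that, Zg16 (0.68), Tff3 (0.77), Muc2 (1.02), Agr2 (0.63) and Spink4 (0.81) were above the median gene and Clca1 (-0.42), Fcgbp (0.34) and Retnlb (0.41) below it, with 0 of the 10 genes called.

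**Figure D4:**
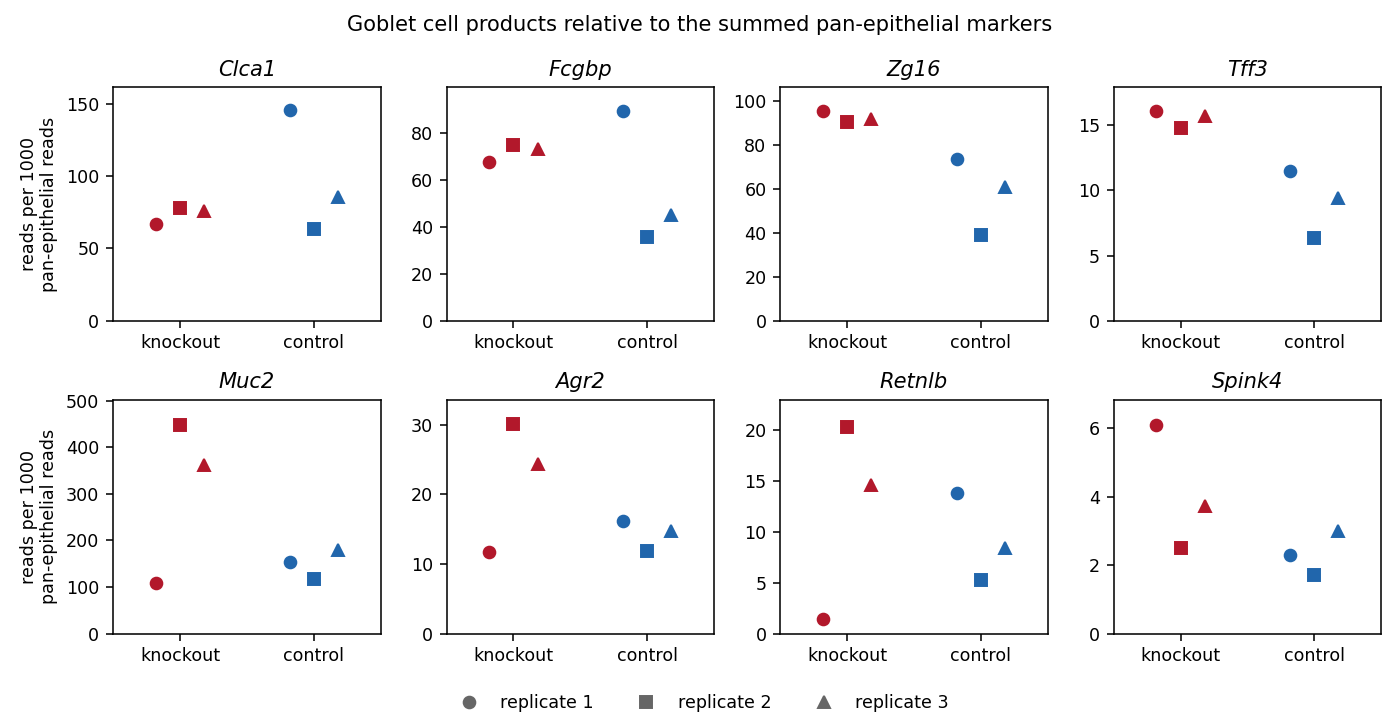
Reads of 8 goblet cell genes per 1000 reads of the 15 pan-epithelial markers (vertical axes, linear from 0), in the knockout and control libraries with the replicate number as marker shape. Clca1, Fcgbp, Zg16 and Tff3 lie close together across the knockout, as Zg16 does at 90.2 to 95.4, whereas Muc2 spreads from 109 to 447.

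Markers of position along the colon also varied widely among the knockout libraries. Hoxb13, a homeobox gene of the distal colon, had 147, 0 and 66.3 CPM in knockout replicates 1, 2 and 3, against 10.01, 8.56 and 0.0608 CPM in control replicates 1, 2 and 3. Hoxd13, another distal gene, had 151, 0 and 71.1 CPM in the knockout and 0.124, 0.810 and 0.0608 CPM in the control. Among genes listed for the proximal colon, Hoxb6 had 4.26, 98.8 and 54.6 CPM in the knockout against 19.0, 40.3 and 90.1 CPM in the control, and Osr2 had 0.918, 75.7 and 37.4 CPM against 24.8, 34.6 and 140.1 CPM. Knockout replicate 1, lowest for Muc2, Agr2, Retnlb and Ang4, was highest for Hoxb13 and Hoxd13, and knockout replicate 2 had 0 reads of both. Within the knockout, replicate 2 was above replicate 1 in 0 of 5 distal and 6 of 8 proximal genes tested. How many of all genes were so was not counted. Not every gene of these lists followed the pattern of Hoxb13 and Hoxd13 or of Hoxb6 and Osr2. The distal gene Hoxa13 had the same order within the knockout, at 54.1, 22.5 and 44.3 CPM in replicates 1, 2 and 3. Its highest levels were in the control, with 96.9, 83.2 and 32.6 CPM in control replicates 1, 2 and 3. The proximal gene Hoxa5 was even, at 26.9 to 34.4 CPM in the knockout and 23.6 to 32.9 CPM in the control, and highest in knockout replicate 1.

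The whole distal list summed to 33.6 to 379.8 CPM in the knockout and 46.7 to 109 CPM in the control, over 6 genes found of 7. The proximal list of 8 summed to 354 to 998 CPM in the knockout and 2408 to 4347 CPM in the control, but Cyp2c55 alone carried that gap. Without Cyp2c55 the sums overlapped, at 323 to 648 CPM in the knockout and 368 to 785 CPM in the control. By edgeR 0 of 5 distal and 0 of 8 proximal genes tested were called, while DESeq2 called 1 and 2 and an unadjusted p under 0.05 was reached by 2 in each list. Over all genes tested the shares were 1.76% in edgeR, 9.19% in DESeq2 and 16.0% by unadjusted p. Hoxd13 and Hoxd11 had log2 fold changes of 7.75 and 1.82 (edgeR adjusted p = 0.144 and 0.254), and Cyp2c55, a cytochrome of the proximal colon, and Slc37a2 had -3.76 and 5.04 (0.0841 and 0.172). Slc37a2, listed as proximal, was read here with the distal genes, at 226, 1.24 and 103 CPM in knockout replicates 1, 2 and 3. Without it as well, the proximal sums were 96.7, 647 and 376 CPM in knockout replicates 1, 2 and 3. Control replicates 1, 2 and 3 then had 364, 424 and 784 CPM. The part of position in the values of the goblet cell genes was not tested.

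**Figure D5:**
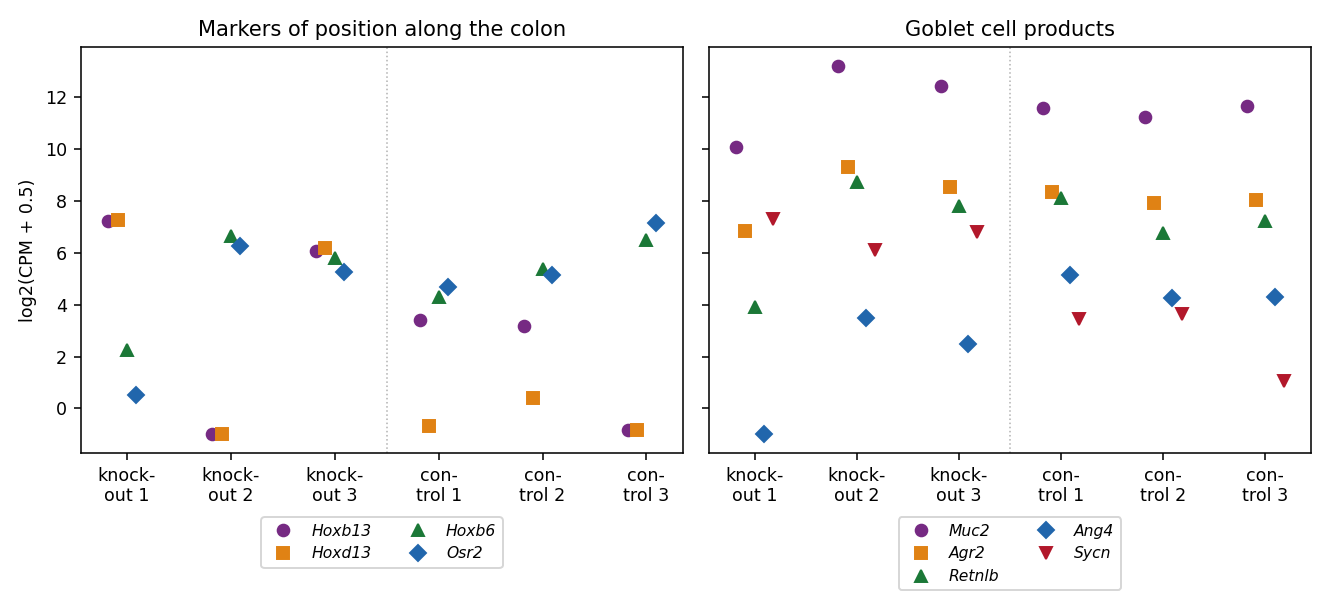
Log2(CPM + 0.5) in each library for 4 markers of position along the colon (left) and 5 goblet cell products (right), knockout libraries before control libraries. Knockout replicate 1 has 147 CPM of Hoxb13 with 14.4 CPM of Retnlb, and knockout replicate 2 has 0 CPM of Hoxb13 with 424 CPM of Retnlb.

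Transcription factors of the goblet and secretory lineage, a list of 10, were higher in knockout replicate 2 than in replicate 1 in 9 of 10, the exception being Foxa2 at 7.74, 7.37 and 7.86 CPM in knockout replicates 1, 2 and 3. The share of all genes tested that were higher in replicate 2 than in replicate 1 was not counted. Knockout replicate 1 was below every control in 9 of 10, beside 37.3% of all genes tested. Replicate 2 was above every control in 6 of 10, beside 32.8% of all genes tested. Atoh1, which commits crypt cells to the secretory fate, had 6.30, 42.7 and 28.6 CPM in knockout replicates 1, 2 and 3, against 30.9, 25.6 and 27.8 CPM in control replicates 1, 2 and 3. Spdef, which drives goblet cell maturation, had 8.13, 33.1 and 17.1 CPM in the knockout and 31.4, 14.1 and 19.0 CPM in the control. EdgeR called 0 of the 10, DESeq2 called 0 and 0 had an unadjusted p under 0.05, and the median log2 fold change was -0.09. The smallest p values belonged to Klf4 (log2 fold change -0.39) and Sox9 (-0.38), at adjusted p = 0.516 and 0.744 in edgeR.

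Genes of mucin folding and granule release, a list of 15, gave 0 calls in edgeR as well (3 with an unadjusted p under 0.05, and 1 call in DESeq2), with a median log2 fold change of 0.18. The matching shares of all genes tested were 1.76%, 16.0% and 9.19%. Slc12a2, the chloride importer of secreting cells, had a log2 fold change of -0.79 ± 0.21 (SE; edgeR adjusted p = 0.131) and was called without knockout replicate 2 (0.0362). Xbp1, a transcription factor of the unfolded protein response, had 215, 288 and 254 CPM in the knockout and 175, 197 and 161 CPM in the control, with no overlap (log2 fold change 0.51 ± 0.16, SE; edgeR adjusted p = 0.196).

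Other secreted products of mucus and granules, a list of 17 with 10 tested, also had 0 calls in edgeR (5 with an unadjusted p under 0.05, and 4 calls in DESeq2) and a median log2 fold change of 0.47. These counts stand beside 1.76%, 16.0% and 9.19% of all genes tested. Muc5ac and Muc5b, the gel-forming mucins of stomach and airway, had 0 reads in all 6 libraries. Clca4b, a relative of Clca1, had 2192, 845 and 1471 CPM in knockout replicates 1, 2 and 3, against 561, 168 and 195 CPM in control replicates 1, 2 and 3. Like Sycn it was highest in knockout replicate 1 and above every control in all 3 knockout libraries, with a log2 fold change of 2.29 ± 0.58 (SE; edgeR adjusted p = 0.117) and a call without knockout replicate 2 (0.0311). Retnlg, a relative of Retnlb known from mouse neutrophils, had 429, 28 and 266 reads in the knockout and 0 reads in every control library (edgeR adjusted p = 0.0812). Members of the Clca and resistin-like families are alike in sequence, which leaves the split of reads among them uncertain.

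Among 15 upstream cytokine and Notch genes, 10 were tested, with a median log2 fold change of 0.62. By edgeR 1 rose and 0 fell, beside 1.09% and 0.670% of all genes tested. An unadjusted p under 0.05 was reached by 5 in edgeR and DESeq2 called 3, beside 16.0% and 9.19% of all genes tested. Il4ra, the receptor chain shared by interleukins that induce Retnlb, had 158, 156 and 151 CPM in the knockout and 83.2, 103 and 83.3 CPM in the control. Its log2 fold change was 0.79 ± 0.14 (SE; edgeR adjusted p = 0.0497), and the call held when knockout replicate 2 was left out (0.0268) but not when any other library was (0.0591 to 0.236). Notch1, a receptor that steers crypt cells away from the secretory fate, had a log2 fold change of 0.70 ± 0.14 (SE; edgeR adjusted p = 0.0637). Il4 and Il5 had 0 reads in all 6 libraries and Il13 had 1 read in control replicate 1, so that these cytokines were not detectable at this depth. Il33 had 13.4 to 35.5 CPM in the knockout and 6.55 to 8.93 CPM in the control (log2 fold change 1.51; edgeR adjusted p = 0.110). Il22 had 16 to 38 reads in the knockout and 2 to 15 reads in the control (log2 fold change 2.08; edgeR adjusted p = 0.213). Fold changes on this list were positive for 8 genes and negative for 2.

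Other epithelial cells and Paneth cells were read beside the goblet cell genes. Absorptive colonocyte markers, a list of 10, summed to 3371 to 9663 CPM in the knockout and 10104 to 10920.3 CPM in the control, with 0 calls in edgeR (4 with an unadjusted p under 0.05, and 3 calls in DESeq2) and a median log2 fold change of -0.81. Slc9a3, the apical sodium-proton exchanger, had 43.7 ± 21.0 CPM in the knockout and 376 ± 226 CPM in the control (SD, n = 3 each; edgeR adjusted p = 0.0730), and Ceacam20 a log2 fold change of -0.95 (0.121). Of 10 Paneth cell markers found, 3 had 0 reads in every library, and the sums were 1.90 to 76.5 CPM in the knockout and 20.4 to 95.8 CPM in the control. EdgeR called 0 of 4 tested (unadjusted p under 0.05 for 3), while DESeq2 called 1 higher and 2 lower. Beside both lists, edgeR called 1.76% of all genes tested, DESeq2 called 9.19% and an unadjusted p under 0.05 was reached by 16.0%. Most of the sum in knockout replicates 2 and 3 was Itln1, an intelectin gene, which had 1.18, 67.3 and 38.3 CPM in knockout replicates 1, 2 and 3, against 3.71, 2.83 and 4.19 CPM in control replicates 1, 2 and 3 (edgeR adjusted p = 0.225). Itln1 is also on the list of other secreted products, so its calls are counted in both lists. Mptx2 was not tested and had 0.262 to 2.85 CPM in the knockout and 0.0578 to 0.371 CPM in the control. Lyz1, the Paneth lysozyme, had at most 1.56 CPM in any library, and Mptx1, a pentraxin gene, had 1.79 ± 1.33 CPM in the knockout and 46.4 ± 39.1 CPM in the control (SD, n = 3 each; edgeR adjusted p = 0.0706). Their part in the Ang4 values was not tested. Without knockout replicate 2, where 11.2% of all genes tested were called, edgeR called 3 other secreted products, 3 upstream, 2 distal and 1 proximal gene higher. At that setting 3 pan-epithelial, 2 absorptive, 1 Paneth cell, 1 proximal and 1 mucin folding gene were called lower. Without knockout replicate 1, where 1.99% of all genes tested were called, it called 1 other secreted product and 1 Paneth cell marker higher. At that setting 1 pan-epithelial and 1 proximal gene were called lower. Without knockout replicate 3, where 0.0930% of all genes tested were called, it called 0 genes of any of these lists.

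The controls had a pattern of their own. Control replicate 1 was the highest control for Clca1, Fcgbp, Zg16, Tff3, Agr2, Retnlb and Ang4, and its Clca1, Fcgbp and Retnlb levels were 2.22, 2.44 and 2.56 times the lowest control. Muc2 and Agr2 varied least, by 1.34 times each, and Sycn most, by 7.65 times. On the log2 scale the SD was larger in the knockout than in the control for 7 of the 10 genes, the exceptions being Fcgbp, Spink4 and Sycn, and it was larger in the knockout for 70.2% of the 10217 genes with a mean of at least 10 CPM.

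Genes outside the list with the profile most like that of Muc2 were sought by the root mean square difference of log2(CPM + 0.5), each centred on its own control mean, over 6 libraries and 11579 genes. The nearest 5 were Slc12a8, Ffar4, Bace2, Nov and Cmbl, at 0.18 to 0.31. Slc12a8 had 5.25, 56.8 and 30.6 CPM in knockout replicates 1, 2 and 3, against 18.4, 17.5 and 18.5 CPM in control replicates 1, 2 and 3. Nearest to Retnlb were Mal, B3gnt6, Muc4, Sptssb and Tmigd1, at 0.39 to 0.61. Mal had 9.77, 189 and 102 CPM in the knockout against 124, 94.7 and 81.5 CPM in the control. These libraries are few and share knockout replicate 3's likeness to the others, so the measure describes them and no more.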

How the data were processed

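RNA was read from flash-frozen colon tissue after column extraction and an integrity check, per the labels' protocols. For 34745 genes and 6 libraries, the deposited table holds whole-number read counts and FPKM values, per the file headers. EdgeR, StringTie 1.3.0 and HISAT2 2.0.4 are listed with no roles, beside the builds mm8 and GRCh38, per the submitters' processing notes. Of 34267 gene identifiers found in GENCODE M21 (GRCm38), 99.9% overlap the table's locus, so coordinates are given on GRCm38. The deposited counts are not normalized, and the deposited FPKM values keep 1 ratio per gene to count over library total within 0.001 log2 units for 100% of 9892 genes with at least 100 counts in every library.

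Counts were tested over all genes with edgeR 4.0.16 in R 4.3.3 (TMM, edgeR's filter on low counts, quasi-likelihood test, two-sided, Benjamini-Hochberg, threshold 0.05, no replicate block). Standard errors come from the test statistic. CPM are TMM-scaled. Alternatives used DESeq2 1.42.0, limma 3.58.1 and other scalings, and the edgeR, DESeq2 and limma fits were tested on simulated data. FPKM fits kept genes with at least 1 FPKM in 3 libraries. Fitted sums of libraries used weighted least squares, with the counting variance of all libraries in the noise. An exact permutation test of 3 against 3 libraries cannot go below p = 0.1 and was not used. Floors are 3 counts. The rule for named list genes was up to 4 past the threshold or else the 2 with the smallest p; others named were chosen after their values were seen. The genes and lists were chosen with earlier results of these data known.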

Additional observations from a re-analysis of the deposited data

How the results depend on the processing

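The count of the 10 genes called was 0 in edgeR, and 1 (Sycn) with DESeq2, with no filter on low counts and with limma voom with quality weights. Leaving out 1 library gave 0 to 1. Over all genes, 278 were called, against 1453 with DESeq2, 3588 with quality weights and 15 to 1825 without 1 library. The lowest of these was without knockout replicate 3 and the highest without knockout replicate 2, and 31, 20 and 29 genes were called without control replicates 1, 2 and 3. Scaling to the pan-epithelial markers gave 78, a count chosen after seeing the data. RLE size factors, no filter on low counts and the limma fits on FPKM gave 189 to 307 calls, and leaving out knockout replicate 1 gave 320. With the replicate number as a block, 0 of the 10 genes and 9 genes in all were called. Same-numbered libraries deviated together at r = 0.0503, -0.170 and -0.00462 over the genes tested, so the numbers are not treated as pairs. The log2 fold change of Retnlb turned from 0.33 to -0.46 with limma on log2(FPKM + 1), with and without the filter on low FPKM, to -0.47 with log2(FPKM + 0.1) and to -0.16 with the replicate block. Leaving out 1 library gave -0.57 to 0.88 for Retnlb, -0.18 to 0.87 for Agr2 and -0.31 to 0.54 for Fcgbp. It gave 0.19 to 1.37 for Muc2, 0.18 to 0.67 for Tff3, 0.07 to 0.59 for Zg16, -1.07 to -0.30 for Clca1 and -3.23 to -1.63 for Ang4, with 0 of these called. The cause was not tested. The sign of the other 7 genes was the same in all 15 settings. Counting depth limits Ang4 and Sycn in the libraries with under 100 reads.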
